A study of Drosophila melanogaster with 3 samples.

Results

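The translation initiation factor genes were taken as the protein-coding genes of the Ensembl BDGP6 gene models whose symbol starts with eIF, which gave 44 of 13945 protein-coding genes. Occupancy of these genes by Zif (CG10267), a DNA-binding protein of the ZAD zinc finger family, was measured by ChIP-seq. The material was whole fly embryos (Drosophila melanogaster) of both sexes, 0 to 24 h old. They carried a Zif transgene ending in GFP at the C-terminus, and chromatin fragments of 200 to 800 bp were precipitated with an anti-GFP antibody. The 3 biological replicates made up 1 group with no second genotype or treatment, so each value is a description and no test was run. The embryos were whole and of mixed age, so a signal cannot be assigned to a cell type or a stage.

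Translation initiation brings the small ribosomal subunit to an mRNA and places it at the start codon. eIF2 delivers the initiator tRNA, eIF2B reloads eIF2 with GTP, eIF3 and eIF1 hold the small subunit open for scanning, and the eIF4 factors bind the cap and unwind the leader. eIF5 and eIF5B act at the joining of the large subunit. The genes of these factors are used in almost every cell, while flies also carry paralogs of several of them, some of which are known for a role in the testis.

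Stretches of genomic sequence around the strongest and some of the weaker summits are printed first, because the DNA words in them are referred to throughout. A summit is the base of highest signal within a peak. Capitals mark exact matches, on either strand, to 3 words: the DNA replication-related element TATCGATA (DRE, the site of DREF and BEAF-32), the core GGTCACAC of the site of M1BP, which reads GTGTGACC on the other strand, and CAACACTG. The word CAACACTG, and the number of summits it was sought on, were chosen after the data were seen. It was the 8-letter word most over-represented around the 400 strongest summits left after the strongest summit of each initiation factor gene was set aside. Any further summit at these genes was not set aside. All sequences are from the RefSeq copy of the dm6 genome and read 5′ to 3′ on the strand of the gene. Annotated UTR sequence was trimmed away, so that stretches are at most 121 bases long. eIF4EHP is shown as a very strong summit with none of the 3 words, eIF2gamma as a strong one with several, of which the trimming cut off the outermost DRE, eIF1 and eIF5 as summits centred on a DRE, and eIF2alpha and eIF2Bepsilon as the weakest summits.
eIF4EHP, chr3R:24109074-24109194, minus strand: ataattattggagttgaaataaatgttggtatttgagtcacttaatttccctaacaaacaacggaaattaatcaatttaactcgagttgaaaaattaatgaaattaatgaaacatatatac
eIF2gamma, chr3R:15263459-15263551, minus strand: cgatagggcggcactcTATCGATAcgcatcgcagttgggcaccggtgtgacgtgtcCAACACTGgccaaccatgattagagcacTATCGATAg
eIF1, chr3L:3222992-3223112, plus strand: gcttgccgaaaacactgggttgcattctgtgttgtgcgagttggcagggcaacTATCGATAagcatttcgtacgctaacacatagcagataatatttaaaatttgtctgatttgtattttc
eIF5, chrX:15992269-15992389, minus strand: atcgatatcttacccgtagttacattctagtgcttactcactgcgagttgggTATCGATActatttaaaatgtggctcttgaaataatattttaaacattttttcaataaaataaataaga
eIF2alpha, chrX:16446994-16447094, minus strand: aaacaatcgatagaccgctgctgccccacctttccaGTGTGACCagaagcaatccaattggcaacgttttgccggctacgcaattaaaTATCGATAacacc
eIF2Bepsilon, chrX:1922911-1922980, minus strand: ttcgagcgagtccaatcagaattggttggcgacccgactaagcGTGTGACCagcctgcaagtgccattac

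The summits of eIF2A, eIF3h and eIF4A lie in the 5′ UTR of their own gene, upstream of a second annotated start, so that only a short stretch around 1 word is shown for each, with that of eIF2gamma for comparison. Capitals mark CAACACTG, or in eIF3h its first 7 letters. In all 4 the word reads in the direction of the gene.
eIF2A, chr3L:21824926-21824953, plus strand: aatcgttgacCAACACTGattgtacatc
eIF2gamma, chr3R:15263478-15263505, minus strand: gtgacgtgtcCAACACTGgccaaccatg
eIF4A, chr2L:5982432-5982459, plus strand: tggtgttaggCAACACTGgcgccactgt
eIF3h, chr2L:5052819-5052845, minus strand: gcacgcttttCAACACTtcaacccaca

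Zif-GFP summits stood at the promoters of 29 of the 44 initiation factor genes, or 65.9%, where 41.0% of all protein-coding genes had one. A gene was counted as bound when a summit of the authors' final set, 8630 summits chosen by the irreproducible discovery rate (IDR), lay within 500 bp of any of its transcription start sites (TSSs). The strongest such summit represents the gene. When the 8630 strongest summits of each replicate's own list were used in turn, 29, 32 and 27 of the genes were bound in replicates 1, 2 and 3, for which the shares over all genes were 39.6%, 43.7% and 37.8%. The mean over the replicates was 66.7% ± 5.72 of the initiation factor genes and 40.3% ± 3.03 of all genes (SD, n = 3). These SDs describe how the calls for the same genes varied between the 3 lists, and the difference between the shares was not tested. A gene that was not bound had no summit in the list, which does not show that it was unoccupied.

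The median strength of the bound initiation factor genes' summits was not above that of bound genes at large. The deposited signal, taken to grow with enrichment over the control, had a median of 474 over the 29 genes (interquartile range 312 to 1064) and of 517 over all 5723 bound genes (334 to 1052), and 14 of the 29 lay above 517. To compare replicates, the signal of each was divided by its own median over the IDR summits, which gives a relative signal of 1 at a typical summit. The median relative signal was 0.991, 1.41 and 1.14 in replicates 1, 2 and 3 at the initiation factor genes, or 1.18 ± 0.212, and 1.20 ± 0.184 over all bound genes (SD, n = 3). Over all bound genes the medians were 1.11, 1.41 and 1.08 in replicates 1, 2 and 3. The initiation factor genes thus lay lower in replicate 1, about level in replicate 2 and higher in replicate 3. Among the 400 strongest IDR summits stood those of 4 initiation factor genes, or 13.8% of the bound ones, and 9.85% of all bound genes had a summit of that rank.

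**Figure D1:**
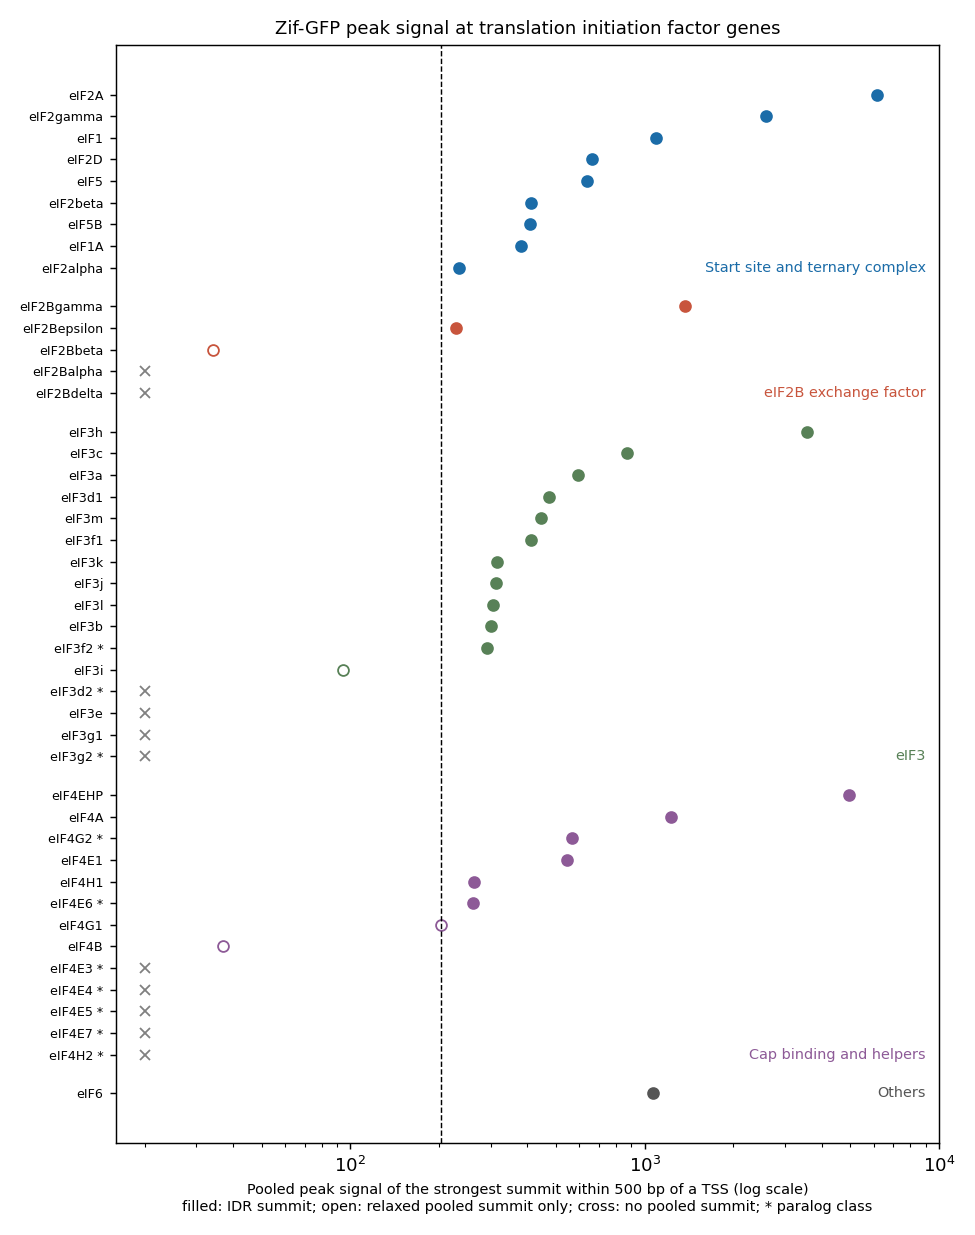
Pooled peak signal (horizontal, log scale) of the strongest summit within 500 bp of a TSS for each of the 44 genes, grouped by role. Filled points are the 29 genes with an IDR summit, open points the 4 with a relaxed pooled summit only, crosses the 11 with no pooled summit, and stars mark paralogs. The dashed line is the weakest IDR signal, 203.9. All 9 genes grouped under the start site and the ternary complex lie to its right, where 41.0% of all protein-coding genes had an IDR summit.

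All 9 genes grouped under the start site and the ternary complex of eIF2, GTP and initiator tRNA were bound, with a median signal of 638. The share over all protein-coding genes was 41.0%. The group includes eIF2A and eIF2D, which carry the initiator tRNA by other routes. In the replicates' own lists 96.3% ± 6.42 of the 9 genes were bound (SD, n = 3). At eIF1, eIF1A and eIF5 the summit lay nearer to the start of another gene. The group holds the strongest summit of all 44 genes and also one of the weakest, eIF2alpha at 235.

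eIF2A, which can deliver the initiator tRNA by a route that does not need eIF2, had the summit of rank 7 in the whole IDR set, with a pooled signal of 6153. Its signal was 2563, 2070.0 and 1563 in replicates 1, 2 and 3, or 14.4 ± 4.58 times the typical IDR summit (SD, n = 3). It was the strongest initiation factor gene in replicates 1 and 2, while eIF4EHP was slightly above it in replicate 3. The summit lies in the 5′ UTR of the longer eIF2A transcripts, 60 bp upstream of the nearest start, and no other protein-coding gene starts within 500 bp. A DRE centred 26 bp upstream, a CAACACTG 35 bp downstream and an M1BP core 4 bp downstream of the summit make it the only bound initiation factor gene with all 3 words within 100 bp.

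eIF2gamma, the subunit of eIF2 that binds GTP and the initiator tRNA, had a summit of rank 324 with signals of 1040.3, 908 and 638 in replicates 1, 2 and 3. Its relative signal was 6.08 ± 2.22 (SD, n = 3). The gene is known to share its start with Su(var)3-9, which encodes a histone methyltransferase, and in the gene models the summit lies 42 bp from a start of both. A summit there cannot be assigned to one of the pair, and Set also starts within 500 bp. The summit stands amid DREs centred 32 and 51 bp upstream and 37 bp downstream, with CAACACTG 9 bp downstream.

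The other subunits of eIF2 had weaker summits. eIF2beta, which contacts eIF5 and eIF2B, had 185, 183 and 138 in replicates 1, 2 and 3. eIF2alpha, the subunit whose phosphorylation slows initiation, had 118, 84.5 and 39.6, and its relative signal was 0.555 ± 0.262 (SD, n = 3). The relative signal of eIF2gamma stood above those of eIF2beta and eIF2alpha in every replicate. eIF2alpha fell out of the strongest 8630 summits of replicate 3. It has both a DRE and an M1BP core in the stretch printed above.

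eIF1, which guards start codon recognition, had signals of 457, 327 and 345 in replicates 1, 2 and 3, and a relative signal of 2.60 ± 0.445 (SD, n = 3). Its summit lies 289 bp upstream, nearer to the divergent ribosomal protein gene RpL28 at 92 bp, and falls 4 bp from the centre of a DRE. eIF5, the GTPase-activating protein of eIF2, had 212, 218 and 239, with a relative signal of 1.60 ± 0.515. At 355 bp its summit was the farthest from its start of all 29 genes, with the start of exd, a Hox cofactor gene, at 139 bp, and it sits 5 bp from a DRE centre. Both genes are bound by the distance rule, while their summits lie nearer to another gene.

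eIF2D, an alternative carrier of the initiator tRNA that also acts in recycling, had 312, 149 and 192 in replicates 1, 2 and 3 and a relative signal of 1.43 ± 0.0989 (SD, n = 3). It was bound on its own, 84 bp upstream. eIF5B, the GTPase of subunit joining, had a pooled signal of 407 and was one of 3 bound genes at which replicate 2 gave the lowest relative signal. eIF1A, the partner of eIF1 on the small subunit, had a pooled signal of 379 at a promoter shared with Vps39.

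Of the 5 subunits of eIF2B, the exchange factor for eIF2, the genes of eIF2Bgamma and eIF2Bepsilon were bound. These make up 40%, near the 41.0% of all protein-coding genes. The share in the replicates' own lists was 33.3% ± 23.1 (SD, n = 3), the widest spread of the 5 roles. eIF2Bgamma had 546, 538 and 316 in replicates 1, 2 and 3, a relative signal of 3.34 ± 1.54, with a CAACACTG centred 1 bp from the summit. eIF2Bepsilon, the catalytic subunit, was the weakest bound gene: no relaxed peak overlapped it in replicate 1, and its signal was 99.8 in replicate 2 and 62.2 in replicate 3. Its summit lies 10 bp from the start of Ocrl, a phosphoinositide phosphatase gene, so the summit of eIF2Bepsilon was both weak and shared.

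eIF2Bbeta and eIF2Bdelta, regulatory subunits, missed the distance rule. eIF2Bbeta had a pooled relaxed summit of 34.3 near its start, but the start lies 684 bp from the IDR summit at Ugalt, whose signal was 4609. eIF2Bdelta had relaxed summits of 71.1 in replicate 2 and 54.0 in replicate 3, none in replicate 1 or the pooled list, and an IDR summit 797 bp away. eIF2Balpha had no summit in any list, and its nearest IDR summit was 41329 bp away.

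Of the 16 eIF3 genes 11 were bound, or 68.8%, beside the 41.0% of all protein-coding genes. The median signal was 412, and the replicates gave 70.8% ± 3.61 (SD, n = 3). Without the paralogs, 10 of the 13 main subunits were bound. eIF3 is the large scaffold on the small ribosomal subunit. Apart from eIF3h the bound eIF3 genes lay in a narrow range, with pooled signals of 290.4 to 874.

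eIF3h had 1413, 1203 and 961 in replicates 1, 2 and 3, and its relative signal was 8.38 ± 2.62 (SD, n = 3). Its summit, of rank 114, lies in its own 5′ UTR 27 bp upstream of its second start, within 500 bp of the start of senju. It holds the first 7 letters of CAACACTG but not the last. In every replicate eIF3h stood above all other eIF3 genes.

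eIF3c had 401, 279.7 and 207 in replicates 1, 2 and 3 and a relative signal of 2.03 ± 0.598. eIF3a had 243, 197 and 165 and a relative signal of 1.41 ± 0.397 (SD, n = 3 for both), but its summit falls on the start of the divergent gene CG1074, 70 bp from that of eIF3a. eIF3b had 132 and 138 in replicates 1 and 2 and no overlapping relaxed peak in replicate 3. Replicate 3 did hold a summit of 109.8 elsewhere at the eIF3b promoter, which carried more than 1 IDR summit. Of eIF3a, eIF3b and eIF3c, eIF3c was highest in every replicate.

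The remaining bound main subunits were eIF3d1, which contacts the cap of some mRNAs in human cells, at a pooled signal of 474, eIF3m at 446, eIF3f1 at 412, eIF3k at 315, eIF3j at 312 and eIF3l at 306. eIF3i had a relaxed summit of 94.8 in the pooled list, with 37.3 in replicate 1, 63.4 in replicate 2 and none in replicate 3. Its rank in replicate 2 was 7124, so replicate 2 alone would have called it bound. eIF3g1 had a relaxed summit of 17.5 in replicate 2 only and an IDR summit 1351 bp away. eIF3e had no summit in any list.

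Of the 13 genes of the cap-binding factors and their helpers 6 were bound, or 46.2%, near the 41.0% of all protein-coding genes. The median signal was 556, and the replicates gave 51.3% ± 4.44 (SD, n = 3). The bound genes were eIF4EHP, eIF4A, eIF4G2, eIF4E1, eIF4H1 and eIF4E6. The group spans ranks 16 to 6954 and includes 5 of the 9 genes with no summit in any list.

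eIF4EHP, a cap-binding protein that blocks translation of caudal and hunchback mRNA in the fly embryo, had 2246, 1129 and 1608 in replicates 1, 2 and 3. Its relative signal, 11.0 ± 0.312 (SD, n = 3), varied less between replicates than that of eIF2A. The summit has rank 16 and lies 174 bp upstream of eIF4EHP, within 500 bp of the start of CG18428. No DRE, M1BP core or CAACACTG lies within 100 bp, and the printed stretch is rich in A and T.

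eIF4A, the helicase that unwinds the mRNA leader, had 519, 440.3 and 296 in replicates 1, 2 and 3 and a relative signal of 2.94 ± 1.09 (SD, n = 3). Its summit lies 98 bp upstream of one of its 3 starts, inside the 5′ UTR of the longer transcripts, and holds a CAACACTG 51 bp upstream of the summit. eIF4E1, the main cap-binding protein, had 183, 217 and 144 and a relative signal of 1.33 ± 0.638. eIF4A thus stood above eIF4E1 in every replicate. eIF4H1, a cofactor of eIF4A, had a pooled signal of 263 at a promoter shared with CG34015, and its summit lies 1438 bp from that of eIF2alpha.

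eIF4G1, the scaffold that joins eIF4E and eIF4A, fell just outside the IDR set. Its pooled signal was 203.3 at rank 8648, where the weakest IDR summit had 203.923 and the next pooled summit 203.915. Its signals were 111, 54.1 and 56.8 in replicates 1, 2 and 3, with ranks of 7597, 8194 and 10665, so that it counted as bound in the strongest 8630 summits of replicates 1 and 2. eIF4B, a stimulator of eIF4A, had a relaxed summit of 36.9 in the pooled list and 32.0 in replicate 2, and its nearest IDR summit was 578990 bp away.

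eIF6, which keeps the large ribosomal subunit from joining too early, had 500.5, 179.7 and 381 in replicates 1, 2 and 3, and a relative signal of 2.29 ± 0.515 (SD, n = 3). Its summit lies 95 bp upstream, in an exon of the antisense gene asRNA:CR45928. It was one of the 3 genes at which replicate 2 was lowest.

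**Figure D2:**
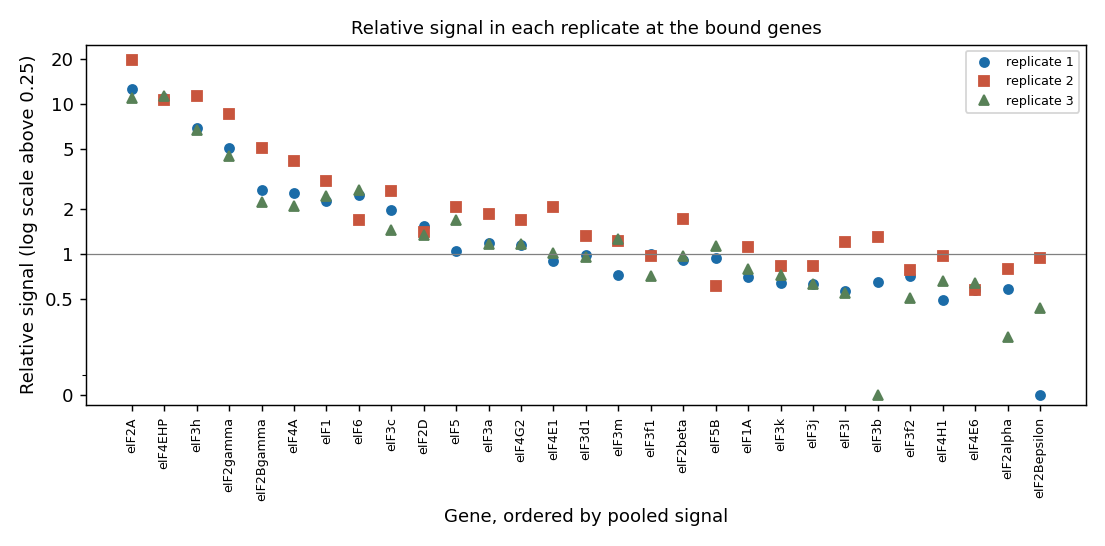
Relative signal (vertical, log scale above 0.25; 1 is the median over IDR summits, shown as a line) of replicates 1, 2 and 3 at the 29 bound genes, ordered from left to right by pooled signal. Replicate 2 is highest at 22 of the 29, and the points at 0 are eIF3b in replicate 3 and eIF2Bepsilon in replicate 1.

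The relative signal was highest in replicate 2 at 22 of the 29 bound genes, or 75.9%, and at 68.3% of all bound genes. This order holds for bound genes in general and is not a property of the initiation factor genes. The 4 genes of highest pooled signal, eIF2A, eIF4EHP, eIF3h and eIF2gamma, were the 4 highest in every replicate.

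Of the 10 paralogs, defined by symbol as further genes for a factor, 3 were bound, or 30%, and of the other 34 initiation factor genes 26 were bound, or 76.5%. The replicates gave 30.0% ± 0 for the paralogs and 77.5% ± 7.40 for the 34 main genes (SD, n = 3), and the difference was not tested. Their median signal when bound was 290.4 over the 3 paralogs and 509 over the 26 main genes. The share of the main genes lay above the 41.0% of all genes. A count of 3 among 10 paralogs is too small to tell their share from 41.0%. The SD of 0 means only that the same 3 paralogs were bound in each replicate's list.

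eIF4G2, a relative of eIF4G1 that is required for male meiosis in flies, had 232, 179 and 166 in replicates 1, 2 and 3 and a relative signal of 1.34 ± 0.311. eIF3f2 had 144, 83.1 and 72.5, a relative signal of 0.670 ± 0.144, at a promoter that holds CAACACTG. eIF4E6 had 116, 60.6 and 90.7, a relative signal of 0.596 ± 0.0374 (SD, n = 3 each). Of these, eIF3f2 had a promoter of its own: the eIF4G2 summit lies 26 bp from starts of both eIF4G2 and CG33111, within an intron of CG34355, and the eIF4E6 summit lies 8 bp from CG1951, in the 5′ UTR of that gene. eIF3d2, eIF3g2, eIF4E3, eIF4E4, eIF4E5, eIF4E7 and eIF4H2 had no summit in any of the replicate lists or the pooled list.

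Bound and unbound paralogs overlapped in how alike their protein is to that of the main gene. Identity over aligned residues of the longest protein of each gene was 32.8% for eIF4G2 and eIF4G1, 40.6% for eIF3f2 and eIF3f1, and 53.8% for eIF4E6 and eIF4E1. Among unbound paralogs it was 72.7% for eIF3g2, 68.3% for eIF3d2, 66.7% for eIF4E4, 61.8% for eIF4E7, 58.2% for eIF4E5, 53.0% for eIF4H2 and 46.3% for eIF4E3. The bound paralogs included the 2 least alike, while eIF4E6 was above eIF4E3 and eIF4H2. eIF4EHP, which has its own symbol and was not counted as a paralog, shared 32.5% with eIF4E1. Of the pair eIF4G2 and eIF4G1, the paralog was bound and the main gene was not.

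In all, 9 genes had no summit in any relaxed list: the 7 unbound paralogs with eIF2Balpha and eIF3e. Their nearest IDR summits lay between 4356 bp (eIF3e) and 80144 bp (eIF3g2) from their starts. The other 6 unbound genes, eIF4G1, eIF3i, eIF4B, eIF2Bbeta, eIF2Bdelta and eIF3g1, had at least 1 relaxed summit in a replicate. Over all 44 genes the relaxed lists of replicates 1, 2 and 3 held 31, 34 and 31, where the shares over all genes were 56.7%, 58.4% and 56.3%. In every list stood 29 of the 44 genes and 50.5% of all genes. These were not the same as the 29 bound genes: eIF2Bepsilon was missing from replicate 1, and the unbound eIF4G1 stood in every list.

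Every strongest summit lay upstream of the nearest start of its gene, 29 of 29, where 90.6% of all bound genes had it upstream. The median distance was 78 bp upstream over the initiation factor genes (interquartile range 27 to 147 bp) and 111 bp over all bound genes, and 20 of the 29 (69.0%) lay within 100 bp, where 44.1% of all bound genes did. Since the summits of eIF2A, eIF3h, eIF4A, eIF5B and eIF3j lie between alternative starts of their own gene, upstream here refers to the nearest start. Of all 29 summits, 20 fell between genes, 7 in a 5′ UTR, 1 in an intron and 1 in a noncoding exon.

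**Figure D3:**
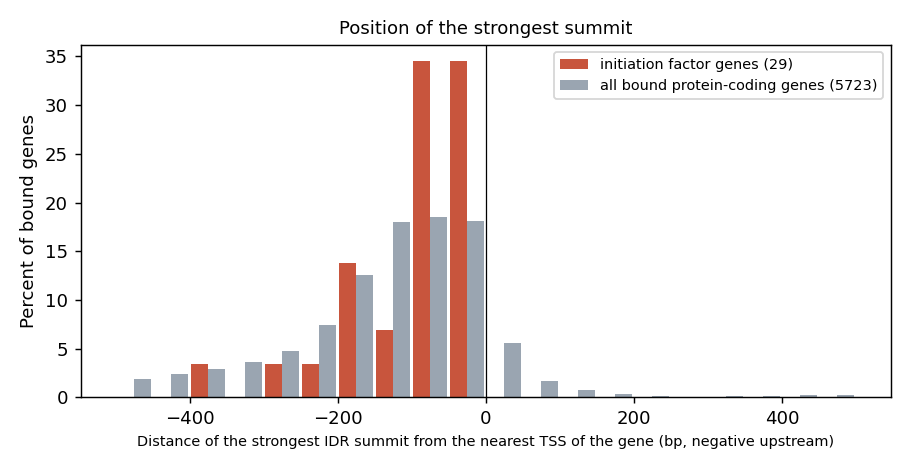
Distance in bp of the strongest IDR summit from the nearest TSS of its gene (horizontal, negative upstream, bins of 50 bp), as a percent of the 29 bound initiation factor genes and of all 5723 bound genes. Of the initiation factor genes 69.0% lie in the last 100 bp before the start, and none lies downstream.

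At 14 of the 29 genes (48.3%) another protein-coding gene also started within 500 bp of the summit, as at 57.9% of all bound genes. The partners not named so far are Patronin at eIF3b, a microtubule minus-end protein gene, Nrx-IV at eIF3l, a septate junction gene, CG8323 at eIF3m and CG46312 at eIF5. The other gene was the nearer one at eIF1, eIF5, eIF3a, eIF1A, eIF3b, eIF4H1, eIF4E6 and eIF2Bepsilon. When only genes that own the nearest start were counted, 21 of the 44 were bound, where the share over all genes was 29.6%.

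The bound share was higher for genes with more than 1 annotated start, among initiation factor genes as among all genes, and this was not tested. Of the initiation factor genes with more than 1 TSS, 14 of 15 (93.3%) were bound, where 57.4% of all such genes were. With 1 TSS it was 15 of 29 (51.7%), where 35.1% of all such genes were. With only the start of the canonical transcript, the count stayed at 29 of 44 and the same genes were bound, where the share over all genes was 38.1%.

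Each arm held only a few initiation factor genes, so the counts by arm are given as they stand. On X 4 of 7 were bound, where 42.9% of all genes on X were, on 3R 9 of 13 (41.4%), on 3L 6 of 11 (40.5%), on 2L 2 of 3 (39.8%) and on 2R 8 of 9 (40.9%). The 1 gene on chromosome 4, eIF4G1, was not bound (37.5%). In the replicates' own lists 42.9% ± 14.3 of the initiation factor genes on X were bound and 41.1% ± 4.12 of all genes on X (SD, n = 3).

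The count of 29 was also set beside those from other distances and summit lists. Within 200 bp of a start 28 genes were bound, without eIF5, where the share over all genes was 33.2%. Within 1000 bp there were 31, with eIF2Bbeta and eIF2Bdelta added (44.6% of all genes). With the peak interval in place of the summit there were 30, with eIF2Bbeta added (42.5%). Any summit of the relaxed pooled list gave 33, with eIF2Bbeta, eIF3i, eIF4B and eIF4G1 added (56.3%). Only the 4315 strongest IDR summits gave 19 (26.0%).

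Genes were also counted when bound in the own lists of 8630 of both replicates of a pair. The summit did not have to be the same in both, and at eIF3b it differed in replicate 3. Replicates 2 and 3 gave 27 of the initiation factor genes (35.7% of all genes) and replicates 1 and 3 gave 27 (35.0%). Replicates 1 and 2 gave 29 (37.5%). eIF2Bepsilon was lost from each pair and eIF2alpha from the pairs that include replicate 3, while eIF4G1 was gained in the pair of replicates 1 and 2. The other 27 genes were bound in every replicate's own list of 8630.

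DREs stood near the summits of 10 of the 29 genes, or 34.5%, and of 12.2% of all 4948 IDR summits at promoters. The 29 are the strongest summit of each gene, while the 4948 include further summits at the same promoters. Exact matches were sought on both strands within 100 bp of the summit, and for promoters within 100 bp of the canonical start, where 7.51% of all 13945 promoters held a DRE. The 10 genes were eIF2A, eIF2gamma, eIF1, eIF6, eIF5, eIF3a, eIF3f1, eIF1A, eIF4E6 and eIF2alpha. TATCGATA was also the 8-letter word most over-represented around the 8601 IDR summits other than the strongest at each initiation factor gene. It was present at 7.20% of them and at 1.24% of their flanks. Of the 15 unbound genes 2 held it at their start, eIF2Bbeta and eIF4B. The core CGATA, which every DRE contains, lay near 20 of the 29 summits (69.0%) and 46.4% of all promoter summits, and in 38.8% of promoters.

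CAACACTG lay near 5 of the 29 summits (17.2%), of eIF2A, eIF2gamma, eIF2Bgamma, eIF4A and eIF3f2, near 6.55% of all promoter summits and in 2.70% of promoters. It was found at 26.5% of the 400 summits it was chosen on, which leave out the strongest of each initiation factor gene, and at 0.625% of their flanks. Its share among promoter summits was higher for stronger summits: 29.2% for ranks 1 to 400, 14.7% for 401 to 2000, 1.95% for 2001 to 4000 and 1.86% for 4001 to 8630. The first of these ranges holds the summits the word was chosen on, so its share is a description. Of the initiation factor genes in these ranges, 2 of 4, 2 of 5, 0 of 7 and 1 of 13 held it. None of the 15 unbound genes held it at its start. The shorter CAACACT, which contains the longer word's first 7 letters and adds eIF3h, lay near 6 of 29 (20.7%), 11.4% of promoter summits and 5.37% of promoters.

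**Figure D4:**
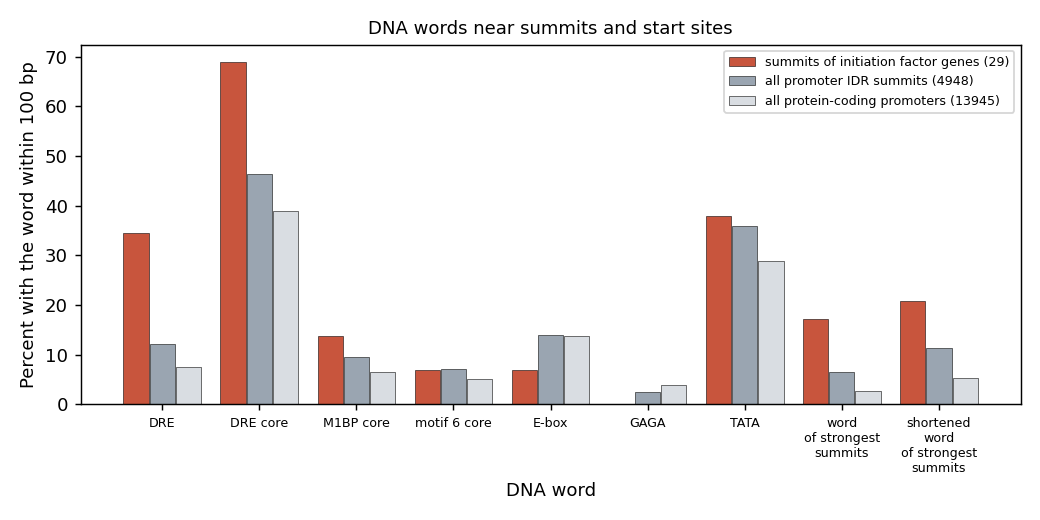
Percent (vertical, from 0) with an exact match to each DNA word within 100 bp of the summit, for the 29 bound initiation factor genes and all 4948 promoter IDR summits, and within 100 bp of the start for all 13945 promoters. The DRE stands at 34.5% of the initiation factor summits and 12.2% of all promoter summits. Several of the initiation factor summits with a DRE lie nearer to the start of another gene. Each initiation factor gene is represented by its strongest summit only, while the 4948 include further summits at the same promoters. The word of the strongest summits is CAACACTG and its shortened form CAACACT.

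Other promoter words were counted in the same way. The M1BP core lay near 4 of the 29 summits (13.8%), 9.42% of all promoter summits and 6.52% of promoters. Those genes were eIF2A, eIF3k, eIF2alpha and eIF2Bepsilon. The core promoter motif 6 (searched as GTATTTTT) lay near 2 (6.90%), 7.07% and 4.98%, the E-box CAGCTG near 2 (6.90%), 13.9% and 13.8%, and the TATA word TATAAA near 11 (37.9%), 35.9% and 28.9%. Within 50 bp, TATAAA lay near 3 of the 29 summits (10.3%), 20.4% of promoter summits and 17.0% of promoters. The GAGA word GAGAGAG lay near none of the 29, with 2.55% of promoter summits and 3.93% of promoters. Counts of 0 to 4 among 29 summits are too few to tell such shares apart.

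At 14 of the 29 summits none of DRE, M1BP core and CAACACTG was found, and 15 held at least 1. The first group runs from eIF4EHP, the second strongest, to eIF4H1, and includes most bound eIF3 genes. Strong summits at initiation factor genes were seen both with these words and without them. A missing match says only that the exact letters are not in this window.

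Of the 19 matched genes listed as regulators of initiation, 15 were bound, or 78.9%, beside the 41.0% of all genes. The share was 77.2% ± 11.0 in the replicates' own lists (SD, n = 3). These counts include Mnt, bound at 438, which encodes a transcription factor and not a regulator of initiation. The strongest were NAT1, which encodes a relative of eIF4G that lacks the part that binds eIF4E, at 4759.7, pix, the fly gene for the ribosome recycling factor ABCE1, at 3629, and larp, an mRNA-binding repressor gene, at 2688. The eIF4E-binding protein gene Thor was bound at 292 and the eIF2alpha kinase gene PEK at 301. The kinase gene Gcn2 and 4E-T, bru1 and raptor were not bound.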

How the data were processed

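Peak lists of 3 biological replicates were used. Per the READMEs deposited with the samples, relaxed peaks were called on dm6 for each replicate against a control, and for a pool of replicates 2 and 3, from which the authors derived the IDR set (caller and threshold not given in the sources used here). At the 29 bound genes the pooled signal was a median of 0.984 times the sum of all 3 replicates, range 0.812 to 1.41, and 1.67 times that of replicates 2 and 3, so no replicate was taken as independent of the IDR set. The deposited signal is the authors' value per peak, with no scaling between lists. Peaks were not ranked by the deposited −log10 q value. Each relaxed list held 30000 summits, and depth is unknown because no read counts are given. A replicate's signal at an IDR peak was taken from its strongest relaxed peak overlapping it (0 with none) and divided by the medians of 202, 105 and 142 over all IDR summits in replicates 1, 2 and 3.

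Starts and features were those of Ensembl release 115, without transposable elements. Genes with another symbol, such as eEF5 (formerly eIF5A), fall outside the rule. Words were counted against flanks of 200 to 400 bp. Scripts used Python 3.11.15, pandas 2.3.3, numpy 2.4.6 and Biopython 1.88, which aligned proteins with BLOSUM62, gap opening 10 and extension 0.5. The assignment of summits to genes was tested on simulated data. Genes and lists were chosen with earlier results of these data known. Replicate values were to be given for the 12 strongest genes, the weakest, the strongest unbound genes and the paralogs. Those of eIF2beta, eIF3b, eIF4E1 and eIF2alpha, the short stretches and further named genes were chosen after their values were seen. Alternatives covered the distance, the list, the starts, the word window and the replicates.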

Additional observations from a re-analysis of the deposited data

How the results depend on the processing

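Of 48 recomputed main counts and medians, 38 stayed within 1.5 times the count or within the spread between replicates, 10 moved and 0 turned round. With only the 4315 strongest IDR summits, 19 genes were bound, 1 of them a paralog, where the share over all genes fell to 26.0%. The median relative signal was then 1.69. The median distance of −78 bp became −70 bp within 200 bp, −84 bp within 1000 bp, −70 bp with canonical starts, and −68, −61 and −59 bp in the relaxed lists of replicates 1, 2 and 3. Within 200 bp, 8 promoters were shared with another protein-coding gene. Leaving out each replicate gave 27 to 29 bound genes, 24 to 26 main genes and 3 paralogs, where the share over all genes was 35.0% to 37.5%. The median relative signal was then 1.07 to 1.28. Among word counts, with 50 bp on each side motif 6 had 0 matches, the E-box 1 and TATA 3. The nearest-start rule and the words CAACACTG and CAACACT were chosen after seeing the data. No paired analysis was possible because there is 1 group. No read counts were used, so signals of 0 cannot be told from weak ones.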

Other observations

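Other parts of the translation machinery also had Zif-GFP summits at their promoters. The 12 matched genes for elongation and termination included Dph1, Dph2 and Dph5, which serve diphthamide synthesis on eEF2 and are not factors themselves. Of the 12, 9 were bound, or 75%, with Dph1 and Dph2 among them. The share was 72.2% ± 4.81 in the replicates' own lists (SD, n = 3). The strongest were Dph1, which makes the diphthamide residue of eEF2, with a pooled signal of 2562, and eEF1gamma with 1902, while eEF1alpha2, eEF1delta and Dph5 were not bound. Of the 8 matched mitochondrial translation factor genes, 7 were bound (87.5%; 83.3% ± 7.22). Their pooled signals ran from 250.4 at mIF3 to 1167 at mEFTs, and mRRF1 was not bound. These counts stand beside the 41.0% of all protein-coding genes and were not tested.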
